A study of Drosophila melanogaster with 9 samples.

Results

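A set of 3 transcripts with their highest levels late in the night was followed around the day in fly heads: the protein-coding genes CG34134 and Achl and the long non-coding RNA lncRNA:CR32553. Each was measured by 1 probe set, 1632072_at for CG34134, 1633337_at for Achl and 1635251_at for lncRNA:CR32553, so they are 3 of the 11982 genes that the arrays named and 3 of 18769 probe sets. They were chosen because earlier results on these same arrays placed their maxima late in the night, and their levels are therefore given as a description, with no test. All 3 passed the filter on low values, a log2 level of 5 or more on 2 or more arrays, as did 12105 probe sets in all.

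The samples were heads of Drosophila melanogaster of a strain named 5073, taken at zeitgeber times (ZT, hours from lights-on) ZT3, ZT7, ZT11, ZT15, ZT19 and ZT23 and hybridised to 9 Affymetrix arrays. There were 3 arrays at ZT3, 2 at ZT15 and 1 at each other time. The genotype behind the strain name, the sex, the age and the light schedule are not stated, so ZT15, ZT19 and ZT23 are called night here by convention. All groups share the strain, and no other strain was used here. Nothing says whether replicate arrays came from separate groups of flies, so the spread between them may be technical.

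In the fly clock the proteins of Clk and cyc switch on per, tim, vri and Pdp1, the per and tim proteins shut this activation off again, and the vri and Pdp1 proteins act on Clk, so that Clk RNA runs out of phase with per and tim. Output genes driven by the different arms of the loop are known to peak at different times of day, and transcripts with maxima late in the night or near dawn are a known class in heads. Achl, named achilles, encodes a protein predicted to bind RNA; it is known as a rhythmic gene of fly neurons and for keeping immune genes in the head at a low level. CG34134 carries a systematic name only, and lncRNA:CR32553 is annotated beside the microRNA genes mir-969 and mir-210, the second of which is known to affect circadian behaviour in flies.

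Levels are the natural log of the deposited values, taken as log2 GCRMA values, where a difference of 1 is a doubling. This scale was inferred from hybridization controls, and on the other reading each fold below is raised to the power 1.44. Markers of neurons (10 of 10 measured, elav at 11.22 to 12.02), photoreceptors (12 of 12) and glia (6 of 6, repo at 10.80 to 11.30) stood at 5 or above on every array. The arrays differed in transcripts of other organs. Of 25 testis and accessory gland markers, 3 reached 5 in ZT3 replicate 1 and 5 in ZT15 replicate 2, against 24 or 25 on the other 7 arrays, and the summed linear level of the list was 490 and 659, against 26570 to 107758. Of 22 gut markers, 13 and 8 reached 5 on those 2 arrays, with sums of 2533 and 781, against 12 to 21 and sums of 14274 to 86915 on the others. The lowest testis and gut levels were 2.43 and 2.30, under the filter value of 5. The lowest value of any probe set, controls included, was 1.67, so a level above 0 does not show expression. ZT3 replicate 1 and ZT15 replicate 2 are called the 2-array set below, and the main fits, steps, likenesses and counts are given with and without them, while the comparisons of ZT23 with ZT11 do not use them. These lists mark organs outside the head, and how their transcripts came to be in samples given as heads was not tested. Each level below is therefore that of the whole sample. Within such a sample, fewer cells of a type and less RNA per cell cannot be told apart.

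CG34134 had the widest range of the 3 transcripts. Its level was 10.96, 11.16 and 11.14 in the 3 ZT3 arrays, 8.58 at ZT7, 7.63 at ZT11, 8.79 and 8.99 at ZT15, 10.97 at ZT19 and 12.87 at ZT23. The ZT23 array was the highest and the ZT11 array the lowest, and the level at ZT23 was 5.24 above that at ZT11, or 37.8-fold. The ordered times were ZT23, ZT3, ZT19, ZT15, ZT7 and ZT11. Neighbours in this order lay further apart than the largest gap between replicates of one time, 0.20, except ZT3 (11.09 ± 0.11, SD, n = 3) and ZT19, which differed by 0.12.

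The decline of CG34134 after lights-on was steep. Between ZT3 and ZT7 its level changed by -2.51, a 5.71-fold drop within 4 h, when the median probe set changed by -0.17. A drop as large was found in 0.124% of tested probe sets. The change was -2.58 without the 2-array set. Gut markers differed over the same step, with a median of 7.91 at ZT7 and of 5.21, 5.76 and 5.58 in the ZT3 arrays, and their part in the drop was not tested. The rise was spread over the night, by 1.26 between ZT11 and ZT15, by 2.07 between ZT15 and ZT19 and by 1.90 between ZT19 and ZT23. The first of these steps was 1.16 and the second 2.18 without the 2-array set.

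Achl moved over almost as wide a range but with another shape. Its level was 8.23, 8.68 and 8.65 in the ZT3 arrays, 5.13 at ZT7, 4.10 at ZT11, 7.29 and 7.39 at ZT15, 9.22 at ZT19 and 9.23 at ZT23. The ZT19 and ZT23 arrays were the highest and lay 0.01 apart, well inside the largest replicate gap of 0.44, so no single time could be named as its maximum. All other neighbours in the order ZT19, ZT3, ZT15, ZT7 and ZT11 differed by more than that gap.

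The low point of Achl fell in the second part of the day, and its recovery came early in the night. At ZT11 its level was under the filter value of 5, and 32.5% of all probe sets on that array were lower still, so it was not shown to be above background and every fold against it rests on that low value. The level at ZT23 exceeded that at ZT11 by 5.13, or 35.0-fold. Against the filter value of 5 in place of the ZT11 level, ZT23 was at least 18.8-fold higher and ZT15 at least 5.07-fold higher, a bound chosen after seeing the data. Achl dropped 10.5-fold between ZT3 and ZT7 (-3.39), a step matched by 0.033% of tested probe sets, and rose 9.47-fold between ZT11 and ZT15 (3.24), a step matched by 0.124%. These steps were -3.53 and 3.19 without the 2-array set.

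lncRNA:CR32553 changed less and its replicates were further apart. Its level was 8.55, 7.96 and 7.95 in the ZT3 arrays, 7.10 at ZT7, 6.46 at ZT11, 7.003 and 8.08 at ZT15, 7.80 at ZT19 and 8.38 at ZT23. The ZT11 array was again the lowest, but the highest single value was that of ZT3 replicate 1, and the ZT15 arrays differed by 1.07. No pair of neighbouring times in the order ZT23, ZT3, ZT19, ZT15, ZT7 and ZT11 was further apart than this gap. Without the 2-array set ZT15 (7.003) lay below ZT7 (7.10). Between ZT3 and ZT7 the level changed by -1.05, or by -0.86 without that set. It rose by 1.08 between ZT11 and ZT15, or by 0.55 without the set. Between ZT15 and ZT19 the rise was 0.26, or 0.79 without the set. The level at ZT23 exceeded that at ZT11 by 1.92, or 3.80-fold.

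**Figure D1:**
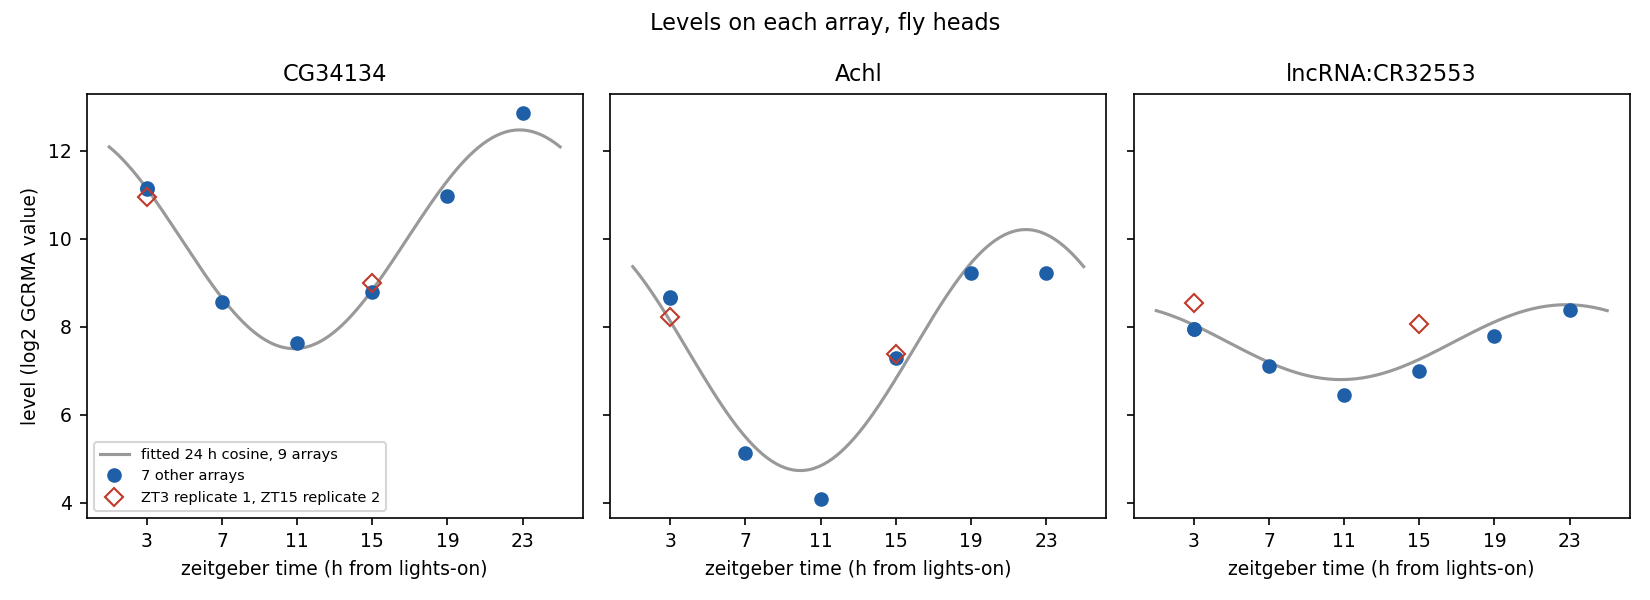
Level (log2 GCRMA value) of each transcript on every array against zeitgeber time in hours; filled points are the 7 arrays outside the 2-array set, open diamonds are ZT3 replicate 1 and ZT15 replicate 2, and the grey line is the 24 h cosine fitted to all 9 arrays. All 3 transcripts were lowest at ZT11, Achl stood level at ZT19 (9.22) and ZT23 (9.23), and the open diamonds lie above the points of the same time for lncRNA:CR32553.

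The replicate gap of lncRNA:CR32553 followed the 2-array set. ZT3 replicate 1 was 0.60 above the mean of the other ZT3 arrays, and ZT15 replicate 2 was 1.07 above the other ZT15 array. Gaps at least as large in both places were found in 4.28% of tested probe sets, while 51.9% were higher in the set at both times. The same gaps were -0.19 and 0.20 for CG34134 and -0.43 and 0.10 for Achl. The part of the testis, accessory gland and gut transcripts in the lncRNA:CR32553 gap was not tested. On the 7 other arrays its levels lay within 0.08 of a 24 h cosine, which took up 99.4% of their variance there, against 67.7% over all 9 arrays. That curve fits a mean, a cosine and a sine to only 7 arrays. On them the median amplitude was 0.97 for testis and accessory gland markers and 1.36 for gut markers. It was 0.20 over all tested probe sets, so nothing is read from the close fit.

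The difference between ZT23 and ZT11, late night against late day, was wide for CG34134 and Achl. Over the 12105 tested probe sets the median difference was -0.01, and 5% of them lay above 0.47. CG34134 ranked 1 and Achl 2 in this difference, with 5.24 and 5.13, and the probe set at rank 3, CG43085, had 2.77. lncRNA:CR32553 ranked 10 with 1.92. With every level under 5 raised to 5, Achl still ranked 2, with 4.23. Each time is 1 array, so these ranks have no replicate check. The members were chosen for late-night maxima on these same arrays, so high ranks follow in part from the choice. Testis and accessory gland markers had a median of 10.78 at ZT23 and 11.72 at ZT11, with summed linear levels of 60418 and 98377 in that order. Gut markers had a median of 9.78 at ZT23 and 9.90 at ZT11, with sums of 57808 and 78187, and the part of either list in the differences was not tested.

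A 24 h cosine fitted over all 9 arrays gave Achl an amplitude of 2.74 (SE 0.34), CG34134 2.49 (SE 0.13) and lncRNA:CR32553 0.85 (SE 0.23). Among the amplitudes of all tested probe sets these were ranks 2, 3 and 200, and the median probe set had 0.16. These ranks, too, follow in part from the choice of the members. The fitted peaks were ZT21.9 (SE 0.36 h) for Achl, ZT22.8 (SE 0.17 h) for CG34134 and ZT22.8 (SE 0.86 h) for lncRNA:CR32553. From trough to peak the fitted curves spanned 44.6-fold for Achl, 31.4-fold for CG34134 and 3.25-fold for lncRNA:CR32553.

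The cosine described the transcripts unequally. It took up 98.4% of the variance of CG34134 between arrays and 90.0% of that of Achl. For Achl it ran 0.88 above the ZT23 array and 0.75 above the ZT11 array, and 0.11 to 0.57 below the ZT3 and ZT15 arrays, so the measured day of Achl had a lower trough and a flatter top than the curve, and its fitted 44.6-fold exceeded the measured 35.0-fold. The fitted fold, too, rests on the ZT11 level under 5. For CG34134 it ran 0.39 below the ZT23 array and 0.36 above the ZT19 array, so the measured maximum was sharper than the curve. Without the ZT23 array the amplitude was 2.30 for CG34134 and 3.16 for Achl.

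The fitted peaks of probe sets with large amplitudes were counted by time of day. Of the 201 probe sets with an amplitude of at least 0.85, about that of lncRNA:CR32553 and so a bound that the members set, the 3 members included, 11 (5.47%) had a fitted peak from ZT20 to ZT24, while of all tested probe sets 2309 (19.1%) did. Of the 11 probe sets with an amplitude of at least 2, the 2 that peaked there were CG34134 and Achl. Without the 2-array set the counts were 11 of 965 (1.14%) with an amplitude of at least 0.85 and 1765 (14.6%) of all, and 2 of 47 with an amplitude of at least 2, again CG34134 and Achl. Transcripts of other organs moved with these counts: the testis and accessory gland markers had a median amplitude of 0.43 and the gut markers of 0.75, or 0.97 and 1.36 without the 2-array set, and 0 of 25 and 0 of 21 peaked from ZT20 to ZT24 in either fit. Their part in the counts was not tested.

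**Figure D2:**
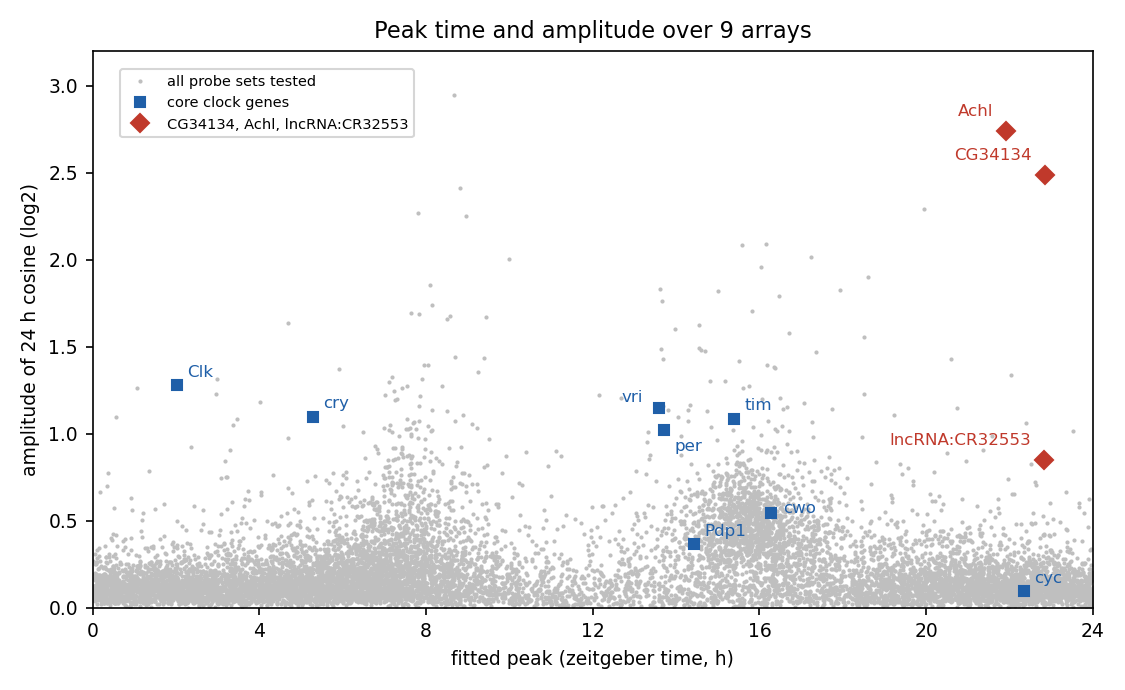
Amplitude (log2) of the 24 h cosine fitted over 9 arrays against its peak (zeitgeber time in hours) for the 12105 tested probe sets in grey, the 3 transcripts as diamonds and the 8 core clock genes as squares. Achl (2.74) and CG34134 (2.49) stand alone at the top right, near ZT22 to ZT23, and lncRNA:CR32553 (0.85) lies below them.

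Over all tested probe sets, limma called 4 rhythms at an adjusted p under 0.05 (0.033%), 1 of them CG34134, and with the 2-array set as a block 30 (0.248%), among them CG34134 and lncRNA:CR32553. The members were chosen on this pattern, so nothing is read from these calls. With the block the amplitudes were 2.49 (SE 0.13) for CG34134, 2.74 (SE 0.33) for Achl and 0.87 (SE 0.09) for lncRNA:CR32553, and the peaks ZT22.8, ZT21.9 and ZT22.9. Without the 2-array set the amplitudes were 2.53, 2.78 and 0.92 and the peaks ZT23.0, ZT22.1 and ZT23.3.

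ZT15 and ZT3 were the only times with replicate arrays. CG34134 averaged 8.89 ± 0.14 at ZT15 (SD, n = 2) and 11.09 ± 0.11 at ZT3 (SD, n = 3), a difference of -2.20 (SE 0.16). Achl averaged 7.34 ± 0.07 at ZT15 and 8.52 ± 0.25 at ZT3, a difference of -1.18 (SE 0.20). For both genes each ZT15 array lay below every ZT3 array. lncRNA:CR32553 averaged 7.54 ± 0.76 at ZT15 and 8.15 ± 0.34 at ZT3, a difference of -0.61 (SE 0.41), and its ZT15 replicate 2 (8.08) lay above ZT3 replicates 2 and 3, so the groups overlapped.

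All 3 differences were negative both inside the 2-array set and outside it. In that order they were -1.97 and -2.36 for CG34134, -0.84 and -1.37 for Achl and -0.47 and -0.95 for lncRNA:CR32553. The last rests on which ZT15 array is used: it was -0.08 without ZT15 replicate 1 and -1.15 without ZT15 replicate 2. Without ZT3 replicate 1 it was -0.42. No probe set of the 12105 was called between ZT15 and ZT3 by limma (0%), and 284 had an unadjusted p under 0.05.

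The core clock genes give the timing against which the 3 transcripts can be placed. Of the 8, limma called Clk, per and cry as rhythmic (3 of 8, where 0.033% of all tested probe sets were called). Clk, which encodes the activator of the loop, peaked at ZT2.0 (amplitude 1.28, SE 0.06, limma's adjusted p = 0.0024). cry, the gene of the blue-light receptor, peaked at ZT5.3 (1.10, SE 0.10, limma's adjusted p = 0.041), and per, which encodes a repressor, at ZT13.7 (1.02, SE 0.08, limma's adjusted p = 0.023). tim, the partner of per, had an amplitude of 1.09 at ZT15.4 and vri, a repressor of Clk, 1.15 at ZT13.6 (limma's adjusted p = 0.13 for both). cwo, a further repressor, had 0.55 at ZT16.3, Pdp1, an activator of Clk, 0.36 at ZT14.4, and cyc, the partner of Clk, 0.10, each with an adjusted p of 1.00 in limma.

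The fitted peak of CG34134 came 3.17 h before that of Clk, that of lncRNA:CR32553 3.19 h before it and that of Achl 4.09 h before it. The amplitudes of CG34134 and Achl were larger than those of all 8 core clock genes, and that of lncRNA:CR32553 was smaller than those of Clk, cry, per, tim and vri. The larger amplitudes follow in part from the choice of the members, and that of Achl was 2.34 without the ZT11 array. The difference in peak time from Clk was not tested, and with samples 4 h apart it is less than or about 1 sampling step. With the 2-array block, tim (adjusted p = 0.025) and vri (adjusted p = 0.047) were also called by limma. Clk was called whichever of the 9 arrays was left out, with an adjusted p from 0.0085 to 0.024 in limma. Its call was lost with median centring (limma's adjusted p = 0.0508) and with 1 mean per time (limma's adjusted p = 0.462). limma also called Clk, per and cry, 3 of 8, without the 2-array set, where 0.562% of all tested probe sets were called. When 1 array was left out at a time, per and cry kept their calls only without the ZT7 array or ZT15 replicate 2, with an adjusted p from 0.0195 to 0.279 for per and from 0.0469 to 0.307 for cry in limma.

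Of 16 tested genes listed as cycling in heads, limma called 0, with 7 at an unadjusted p under 0.05. Over all tested probe sets 0.033% were called, so a count of 0 in a list of this size is near the background. The 7 at an unadjusted p under 0.05 in limma are 43.8% of the list, against 524 of 12105 (4.33%) of all tested probe sets. The list was chosen with earlier results of these data known. The smallest p belonged to Usp8, a ubiquitin protease gene (amplitude 0.90, SE 0.13, ZT11.1, limma's adjusted p = 0.25), and Slob, which encodes a partner of the Slowpoke potassium channel (0.44, SE 0.10, ZT12.6, limma's adjusted p = 0.825). With the 2-array block 1 was called, Ugt35B1, a UDP-glycosyltransferase gene (0.96, SE 0.08, ZT3.3, limma's adjusted p = 0.0198), where 0.248% of all tested probe sets were called. Ugt35B1 was also the 1 gene called without the 2-array set (limma's adjusted p = 0.0106), where 0.562% were. The median amplitude of this list was 0.31, against 0.16 over all tested probe sets.

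Because Achl is known for its action on immune genes, antimicrobial peptides, recognition proteins and members of the Imd and Toll pathways were listed beside it. Of 26 tested, limma called 0 as rhythmic, with or without the block, and without it 4 had an unadjusted p under 0.05. The background was 0.033% called without the block, where 524 of 12105 had an unadjusted p under 0.05, and 0.248% with it, so nothing is read from 0 of 26. Without the 2-array set limma called 1, DptB, an antimicrobial peptide gene with a fitted peak at ZT9.49 (amplitude 0.85, SE 0.06, limma's adjusted p = 0.0160), where 0.562% of all tested probe sets were called. Over all 9 arrays the median amplitude of the list was 0.15, close to the 0.16 of all tested probe sets. dl, a transcription factor of the Toll pathway, had 0.30 (SE 0.06) at ZT4.3 (limma's adjusted p = 0.789), and PGRP-SB1, a peptidoglycan recognition protein gene, 0.48 (SE 0.12) at ZT8.3 (limma's adjusted p = 0.966). Each listed gene was read from its probe set of highest mean. A further probe set of dl had an amplitude of 0.04 (SE 0.09) without the 2-array set. Fitted peaks from ZT20 to ZT24 were found for 7 of the 26, against 2309 of 12105 (19.1%) of all tested probe sets, and without the 2-array set for 5 of the 26, against 1765 of 12105 (14.6%).

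The genes beside the 3 transcripts in the genome had smaller amplitudes than the transcripts themselves. This follows in part from the choice, since the transcripts were chosen for late-night maxima on these same arrays and the neighbours by position. Neighbours were taken by position from the RefSeq table of assembly Release 6 plus ISO1 MT. The nearest 2 genes with a probe set on either side of each gave 12 neighbours, of which 10 passed the filter. limma called 0 of the 10, with or without the block, and without it none had an unadjusted p under 0.05 (smallest 0.0688). The background was 0.033% without the block and 0.248% with it, so nothing is read from 0 of 10. Without the 2-array set limma also called 0 of the 10, with 4 at an unadjusted p under 0.05, against 3433 of 12105 of all tested probe sets. The amplitudes of the neighbours were between 0.05 and 0.38 over 9 arrays and between 0.12 and 0.47 without the 2-array set. The medians of all tested probe sets were 0.16 and 0.20 in that order.

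Beside CG34134, the gene CG8475 kept within 9.996 and 10.68 (amplitude 0.16, SE 0.09), and Acbp1, of an acyl-CoA binding protein, within 9.73 and 10.50 (0.14, SE 0.17). Rbsn-5, of the endosomal protein Rabenosyn-5, had an amplitude of 0.09 and CG8460 0.27. Beside Achl, Sin1, of a subunit of the TORC2 kinase complex, had 0.18 (SE 0.16), CG17385 0.07 (SE 0.08) and phyl, an adaptor gene of photoreceptor and bristle development, 0.26 (SE 0.10). The 3 probe sets of L, the eye development gene Lobe, stayed between 2.58 and 4.53 and were not tested.

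Beside lncRNA:CR32553, CG7135 had the largest amplitude of the neighbours, 0.38 (SE 0.29), with a fitted peak at ZT23.4. Its level was 9.71 at ZT23 and 8.65 at ZT11, and it was 10.49 in ZT3 replicate 1 and 10.33 in ZT15 replicate 2, where lncRNA:CR32553 was also above the arrays of the same time. Taf8, of a subunit of the general transcription factor TFIID, had 0.05 (SE 0.26) and ari-1, of a ubiquitin ligase, 0.12 (SE 0.11), while CG43133 was at 2.72 to 3.099 and was not tested. Taf8 was likewise higher on those 2 arrays, at 7.32 in ZT3 replicate 1 and 7.55 in ZT15 replicate 2. By any amount, 51.9% of all tested probe sets were also higher at both times, so that alone is not particular to CG7135. Gaps at least as large as those of lncRNA:CR32553 were found in 4.28%. In ZT3 replicates 2 and 3 and ZT15 replicate 1, CG7135 was at 9.83, 9.63 and 9.25, and Taf8 at 6.71, 6.52 and 6.39. ari-1 was at 9.76 on both arrays of the set, against 9.60, 9.93 and 10.045 in the same order. The cause of these gaps was not tested. mir-969 and mir-210 lie nearer, but no probe set named them, and their levels were not analysed here.

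**Figure D3:**
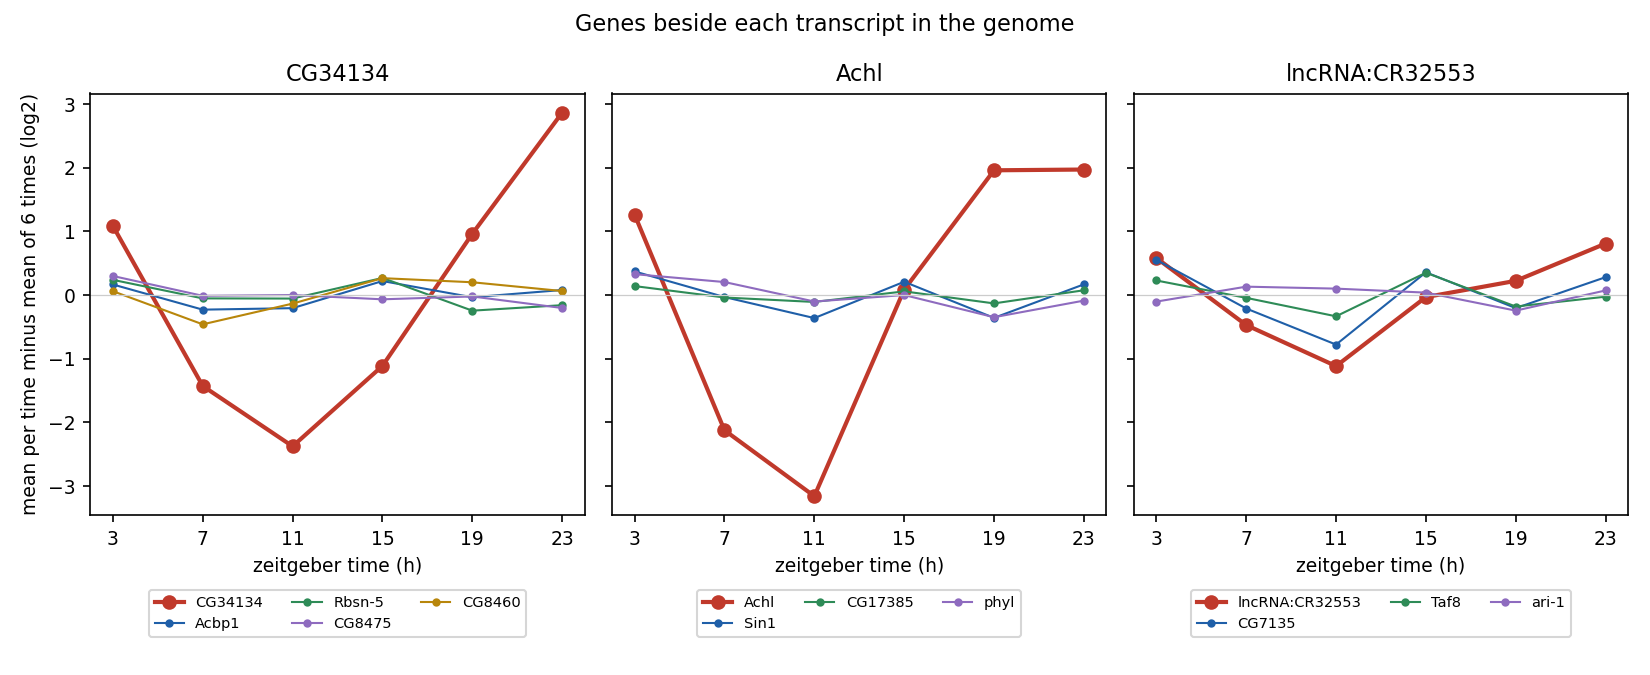
Mean per time minus the mean of the 6 times (log2) against zeitgeber time in hours for each transcript (thick line) and the tested genes beside it in the genome (thin lines). The neighbours of CG34134 and Achl stay near 0 at every time; CG7135 dips at ZT11 beside lncRNA:CR32553.

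Likeness of profile was measured as the root mean square difference over the 9 arrays after each gene was centred on its own mean, with 1 probe set per gene. CG34134 and Achl were each other's nearest gene, at 0.79, where CG34134 itself deviated from its mean by 1.59 and Achl by 1.71. The next nearest to CG34134 were CG13305 (0.96), CG7763 (1.03), Clk (1.10) and lncRNA:CR32553 (1.11). CG7763 passed the filter through the ZT3 arrays only (5.19 to 5.62) and was at 3.04 to 4.70 on all others. CG13305 stood at 8.98, 9.07 and 9.02 at ZT3, 7.59 at ZT7, 6.51 at ZT11, 6.60 and 7.39 at ZT15, 7.29 at ZT19 and 8.93 at ZT23, so it was still near its low at ZT19, when CG34134 stood at 10.97. After CG34134, the nearest to Achl were CG7763 (1.22), lncRNA:CR32553 (1.23), CG14636 (1.27) and CG31036 (1.27). These values are a description over 9 arrays that share their normalization. Levels were centred but not scaled, so the measure depends on range as well as on timing. CG34134 and Achl were both chosen for late-night maxima and both range widely, so their nearness follows in part from the choice.

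lncRNA:CR32553 had closer company. Its nearest genes were mah (0.24), t (0.26), Prim1 (0.27), Adsl (0.27) and CG4842 (0.28), against its own deviation of 0.66. t encodes tan, an enzyme that frees dopamine and histamine from their conjugates, Prim1 a subunit of DNA primase, and Adsl adenylosuccinate lyase of purine synthesis. All 5 were lowest at ZT11, and their levels at ZT23 exceeded those at ZT11 by 0.92 to 1.34. At ZT11 mah (4.81) and Prim1 (4.52) were under the filter value of 5. All 5 were also higher in the 2-array set than on the arrays of the same time, by 0.14 to 0.54 at ZT3 and by 0.42 to 1.34 at ZT15, and their likeness to lncRNA:CR32553 over 9 arrays includes those 2 arrays. Over the 6 means per time, 2 of these 5 remained among the nearest, t and Prim1, while 4 of 5 did for CG34134 and 4 of 5 for Achl. Over the 7 arrays outside the 2-array set, 3 of the 5 nearest to lncRNA:CR32553 remained, mah, t and Prim1, and its nearest gene was Obp83cd (0.12). For CG34134 4 of 5 remained and for Achl 5 of 5, with these genes again each other's nearest at 0.81.

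**Figure D4:**
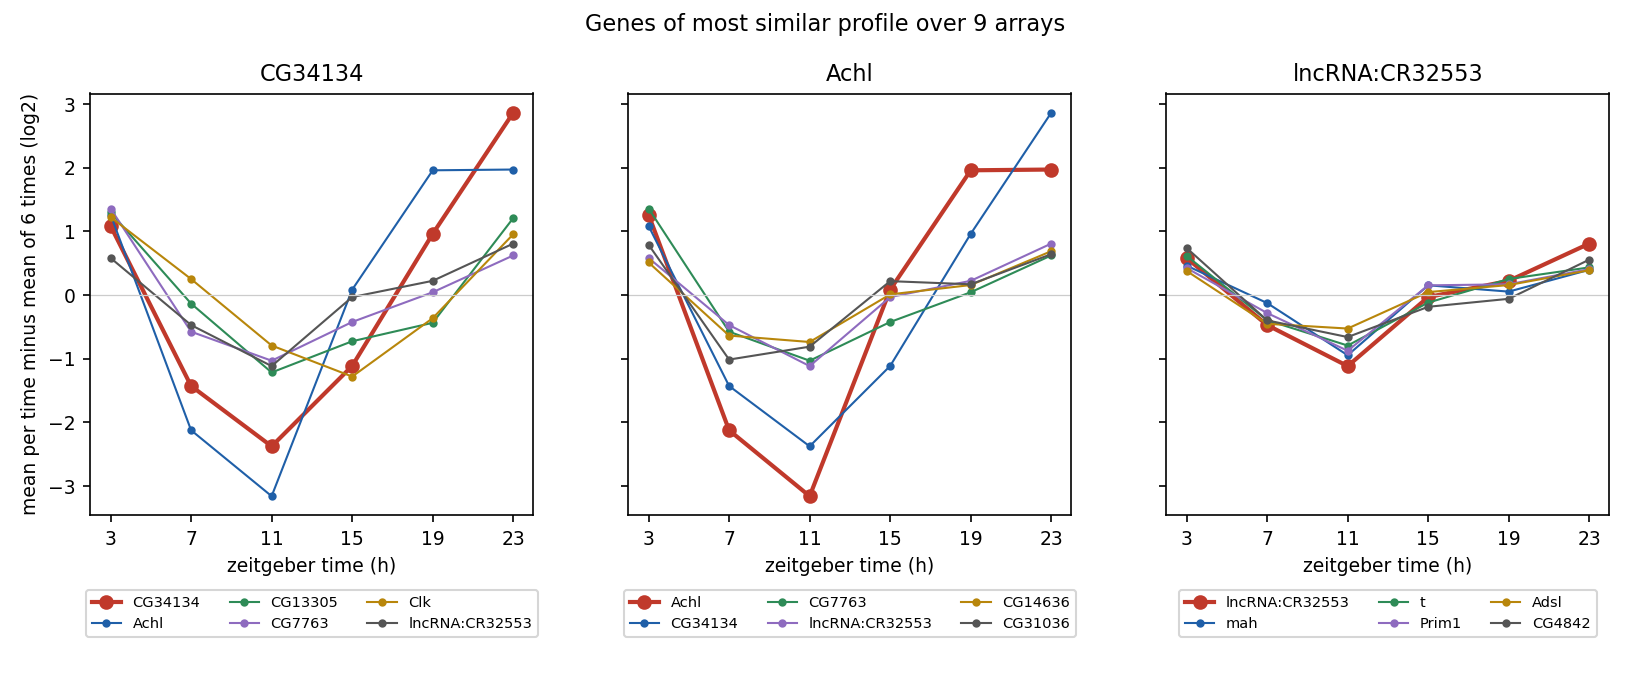
Mean per time minus the mean of the 6 times (log2) against zeitgeber time in hours for each transcript (thick line) and the 5 genes of smallest root mean square difference from it over 9 arrays (thin lines). Apart from each other, CG34134 and Achl range more widely than the genes nearest to them, while the genes nearest to lncRNA:CR32553 run close to it and share its low at ZT11.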

How the data were processed

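Heads of the 5073 strain were measured on 9 arrays. Per the submitters' processing notes the authors used GCRMA, with settings not given in the sources used here. Their deposited intensity values (5.31 to 8120023) reach 22.95 in log2, beyond a 16-bit scanner. Hybridization controls at 1.5 to 100 pM rose per log2 concentration with a slope of 1.02 in their natural log and 1.47 in log2, so their natural log was taken as the log2 GCRMA value. On the other reading each fold is raised to the power 1.44. The 183 control probe sets were left out. Genes were named from the platform annotation, updated by Entrez identifier in RefSeq (13544 of 13647 probe sets naming 1 gene matched).

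limma 3.58.1 in R 4.3.3 was run on the 12105 probe sets reaching 5 on 2 arrays: a moderated F for a 24 h cosine and sine over 9 arrays, and ZT15 minus ZT3 over 6 group means, adjusted by Benjamini-Hochberg (threshold 0.05, two-sided). Both were tested on simulated data. Named were the 3 members, all core clock genes, the 5 nearest genes by profile, genome neighbours, and in each other list up to 3 called genes or the 2 of smallest p. Genes of the lists and nearest genes were each read from 1 probe set, that of highest mean. The members and lists were chosen with earlier results of these data known. The number of arrays limits the precision. Same-numbered ZT3 and ZT15 arrays deviated in opposite directions (r = -0.857 across probe sets), so the numbers were not taken as pairs. Alternatives were other normalizations, filters and scales, the 2-array set as a block or left out (for the lists, steps, likenesses and peak counts a choice made after seeing the data), 1 mean per time, and leaving out each array.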

Additional observations from a re-analysis of the deposited data

How the results depend on the processing

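The fitted peaks of the 3 transcripts lay between 21.8 and 23.6 zeitgeber hours under every alternative run, and ZT15 minus ZT3 stayed negative. Read as log2 of the deposited values, amplitudes were 3.59 for CG34134 and 3.95 for Achl, and ZT15 minus ZT3 was -3.17 and -1.70. Leaving out 1 array gave amplitudes of 2.30 to 2.62 for CG34134, 2.34 to 3.16 for Achl and 0.67 to 0.98 for lncRNA:CR32553, and peaks at 22.6 to 22.9, 21.8 to 22.1 and 22.3 to 23.6 in that order. It gave ZT15 minus ZT3 of -2.30 to -2.10, -1.32 to -1.10 and -1.15 to -0.077. Without the 2-array set CG34134 differed by -2.36. With the replicate block (4 arrays) the differences were -2.17, -1.11 and -0.72, and limma called 0 probe sets (23 at an unadjusted p under 0.05); with the numbers crossed, a pairing chosen after seeing the data, it also called 0 (586 at an unadjusted p under 0.05).

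The count of 4 rhythmic probe sets was 1 with median centring, 30 with the 2-array block, 68 without the 2-array set, 2 to 11 on leaving out 1 array, and 0 with 1 mean per time, where 358 had an unadjusted p under 0.05. Core clock calls, 3 in the reported fit, were 5 with the block, 0 with median centring or 1 mean per time (5 at an unadjusted p under 0.05 in limma each) and 1 to 3 on leaving out 1 array. For ZT15 against ZT3 the count of 0 was 2190 without the 2-array set, from 1 ZT15 array against 2 ZT3 arrays. The causes were not tested. Single arrays at ZT7, ZT11, ZT19 and ZT23 leave the highest and lowest values without replicates.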

Other observations

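Besides CG34134 and Achl, 7 tested probe sets were at least 2 higher at ZT23 than at ZT11, each time being 1 array with no test; the genes were chosen after their values were seen. CG43085 stood at 8.47 at ZT23 and 5.70 at ZT11. Lsp2, a storage protein gene of the fat body, stood at 13.74 at ZT23 and 11.07 at ZT11, and TpnC4, a troponin C gene of muscle, at 9.05 and 7.04. The others were CG15263 (2.51), CG13305 (2.43), CG11854 (2.32) and CG3906 (2.00), given as the ZT23 minus ZT11 difference on the log2 scale.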
